A study of Homo sapiens with 3 samples.

Results

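EHF, ELF3, SPDEF, GRHL1, GRHL2, ESRP1 and ESRP2 are regulators of epithelial cell fate, and their transcripts were followed across 3 arrays of transfected cells labelled HepG2. The members were every probe set whose gene annotation carried one of these 7 symbols, of 21357 symbols on the array. They came to 20 of 54675 probe sets: 6 for EHF, 5 for SPDEF, 3 for ELF3, 2 each for GRHL1 and ESRP1, and 1 each for GRHL2 and ESRP2. The group was put forward because EHF already stood apart in these values, so the levels and ratios of EHF are a description and support nothing further.

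Total RNA came from cultures labelled HepG2, a line derived from a human liver tumour, grown in DMEM with fetal bovine serum. The cells were stably transfected with an Hsp27 ORF vector (titled IRES2-HSP27), an Hsp27 shRNA vector (titled HSP27-SiRNA) or a control vector (titled EGFP-NC), with 1 array per group. The series' title places Hsp27, a small heat shock protein and product of HSPB1, in the spread of hepatocellular carcinoma. With no replicate arrays no p-value can be given, and every difference below describes 3 arrays and not the conditions.

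HSPB1 itself gave log2 signals of 13.11 with the ORF label, 13.03 with the shRNA label and 13.25 with the control label. The control array was thus the highest, with log2 ratios to control of −0.14 for ORF and −0.22 for shRNA. The 1 HSPB1 probe set showed no rise with the ORF label and only a small fall with the shRNA label. The groups are therefore called by their labels throughout. Of 12 markers of hepatocytes and HepG2 that could be measured, 2 exceeded the median of all probe sets on any array (AFP, at most 6.25, and TF, at most 6.51) and 0 reached the 75th percentile. Among 6 markers of simple epithelium, KRT7, KRT8, KRT18 and EPCAM reached that percentile, and 6 of 9 mesenchymal markers did. The labelled hepatocyte character is therefore not borne out by these markers, while KRT7, KRT8, KRT18 and vimentin (VIM, at least 13.78) were bright on all arrays. KRT19, another simple keratin, was below the median on all arrays (at most 3.59), and CDH1 (E-cadherin) exceeded it on control alone.

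EHF, ELF3 and SPDEF belong to the ETS family of transcription factors, whose shared DNA-binding domain recognises a GGAA core, and all 3 are found mainly in epithelia. GRHL1 and GRHL2 are grainyhead-like factors, which keep up the genes of epithelial junctions. ESRP1 and ESRP2 are RNA-binding proteins that steer the splicing of many transcripts towards the epithelial form. Loss of several of these regulators accompanies the passage of epithelial cells to a mesenchymal state, in which ZEB and SNAI repressors bind E-boxes of the form CAGGTG.

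The sequences before the annotated starts of EHF and ELF3 are shown because EHF was the member that differed most between arrays and ELF3 was its bright relative with close readings from 3 probe sets. They are the 250 bases upstream of each start in RefSeq's GRCh38.p14 annotation, on the plus strand, at chr11:34624007-34624256 and chr11:34632316-34632565 for EHF and chr1:202010337-202010586 for ELF3. Capitals mark GGAA or CAGGTG on either strand.

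EHF, first start: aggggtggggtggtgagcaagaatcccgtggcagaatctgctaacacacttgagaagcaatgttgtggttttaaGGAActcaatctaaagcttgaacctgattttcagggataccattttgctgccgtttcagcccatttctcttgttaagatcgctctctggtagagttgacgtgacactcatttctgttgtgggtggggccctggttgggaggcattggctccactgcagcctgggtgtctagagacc
EHF, second start: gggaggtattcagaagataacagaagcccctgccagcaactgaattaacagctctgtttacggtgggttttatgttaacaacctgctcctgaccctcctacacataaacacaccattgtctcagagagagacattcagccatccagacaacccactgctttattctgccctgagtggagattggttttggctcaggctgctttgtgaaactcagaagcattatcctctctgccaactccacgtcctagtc
ELF3: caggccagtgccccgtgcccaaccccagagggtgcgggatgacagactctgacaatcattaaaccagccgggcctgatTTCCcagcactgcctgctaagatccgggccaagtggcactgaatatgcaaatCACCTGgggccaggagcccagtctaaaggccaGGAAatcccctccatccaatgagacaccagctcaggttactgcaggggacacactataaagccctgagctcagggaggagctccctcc

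The first EHF window held 1 GGAA, the second 0 and the ELF3 window 2. Over 35116 windows of the same length, 92.7% held at least 1 GGAA, with a median of 3. CAGGTG was absent from both EHF windows and occurred 1 time before ELF3, against 17.5% of all windows. Neither CCGGAA, which contains the GGAA core and occurred in 14.5% of all windows, nor the grainyhead motif AACNGGTT, in 1.49%, was found in any of the 3. These are letter matches only.

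EHF was read clearly by 1 of its 6 probe sets. Its brightest, 225645_at, had a log2 signal of 8.83 on the array labelled ORF, 7.38 on shRNA and 8.46 on control, or linear signals of 455, 167 and 352. The array labelled shRNA was thus far below the other arrays, and the array labelled ORF was the highest. The log2 ratio was −1.08 for shRNA against control (2.11-fold lower), 1.45 for ORF against shRNA (2.73-fold higher) and 0.37 for ORF against control (1.29-fold higher). As a measure of technical error, probe sets of the same gene with like signals differed in their ratios with a noise SD of 0.287, 0.230 and 0.253 at this signal for these comparisons in turn. The noise SD leaves out all variation between cultures. The first 2 ratios were several times the noise SD, while the third was little larger than it. Among 8181 genes that reached the 75th percentile of all probe sets (8.63) on at least 1 array, EHF was number 6 from the bottom for shRNA against control, number 2 from the top for ORF against shRNA and number 364 from the top for ORF against control. EHF is among these genes only through its signal on the array labelled ORF, and it was chosen for these values, so its place is a description.

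The other 5 EHF probe sets lay near or under 5.93, the median over all probe sets and arrays. This value served as a floor to which lower signals were raised before ratios were taken. Probe set 232361_s_at read 5.98 on the array labelled ORF, 5.69 on shRNA and 6.09 on control, so that 2 arrays were just above the floor. Probe set 219850_s_at read 5.34, 2.97 and 5.39 in the same order, with the array labelled shRNA again the lowest. Probe set 222932_at read 4.37, 1.73 and 2.12. In 224189_x_at (5.14, 4.44 and 3.16) and 232360_at (5.82, 5.55 and 4.71) it was the control array that read lowest. Before flooring, ORF was above shRNA in 6 of 6 EHF probe sets, and shRNA was below control in 4 of 6. Signals this low carry little information, and these probe sets disagreed on whether control or shRNA was lowest.

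**Figure D1:**
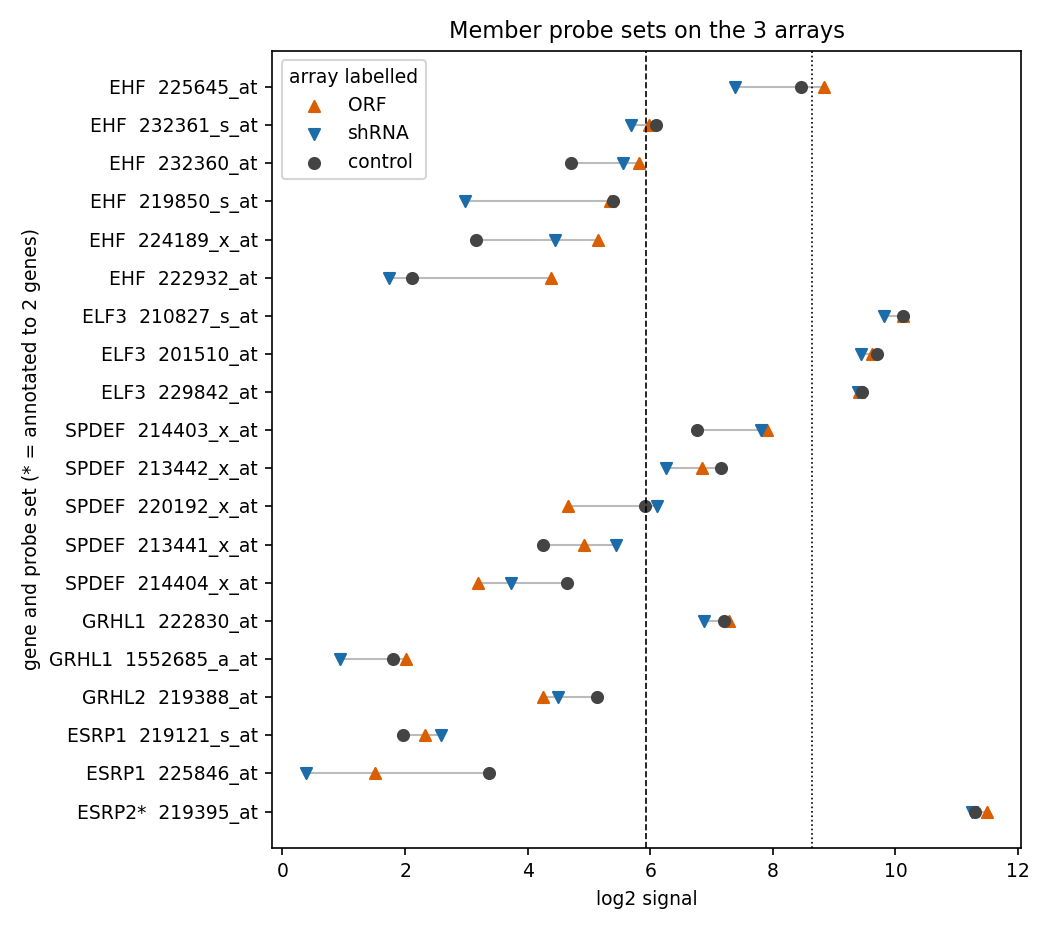
Log2 signal (horizontal axis) of the 20 member probe sets on the arrays labelled ORF (triangles pointing up), shRNA (triangles pointing down) and control (circles), 1 array each. The dashed line is the pooled median of all probe sets (5.93) and the dotted line the pooled 75th percentile (8.63): ELF3, ESRP2 and, on 1 array, EHF lie beyond the latter, and the probe sets of GRHL2 and ESRP1 lie left of the floor.

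ELF3, an ETS factor of simple epithelia that also responds to inflammatory signals, was bright on all arrays in 3 of 3 probe sets. Its brightest, 210827_s_at, read 10.12 on the array labelled ORF, 9.81 on shRNA and 10.13 on control. Probe set 201510_at read 9.61, 9.43 and 9.69, and 229842_at read 9.41, 9.40 and 9.46. ORF and control were nearly level in each, and shRNA was the lowest in each. For 210827_s_at the log2 ratio was −0.32 for shRNA against control (noise SD 0.190), 0.31 for ORF against shRNA (noise SD 0.144) and −0.01 for ORF against control. The same 2 differences were −0.26 and 0.18 in 201510_at and −0.06 and 0.01 in 229842_at, so the size of the ELF3 difference depended on the probe set and stayed under 1.5-fold in all 3.

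SPDEF, an ETS factor of secretory cells, was measured by 5 probe sets that all carry the suffix _x_at, which marks probes that can match other transcripts. They did not agree. The brightest, 214403_x_at, read 7.91 on the array labelled ORF, 7.81 on shRNA and 6.76 on control, with the control array lowest. The next, 213442_x_at, read 6.85, 6.25 and 7.15, with the control array highest. Their log2 ratios were 1.15 and −0.31 for ORF against control, and 1.05 and −0.90 for shRNA against control. Of the rest, 220192_x_at read 4.66, 6.11 and 5.92, and 213441_x_at and 214404_x_at were below the floor on all arrays. No direction can be given for SPDEF.

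GRHL1, a grainyhead-like factor that acts on desmosomal genes, read 7.29 on the array labelled ORF, 6.88 on shRNA and 7.21 on control in 222830_at. The array labelled shRNA was the lowest, and the log2 ratio to control of −0.33 was smaller than its noise SD of 0.407. The log2 ratio of ORF to shRNA, 0.40, was past its noise SD of 0.332. Its other probe set, 1552685_a_at, was at most 2.01. GRHL2, the grainyhead-like factor tied most closely to E-cadherin, was below the floor on all arrays at 4.25, 4.50 and 5.13. A difference of GRHL2 between arrays is not detectable at this signal.

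ESRP1 was also below the floor on all arrays, at 2.33, 2.59 and 1.96 in 219121_s_at and at 1.51, 0.39 and 3.37 in 225846_at. The only probe set that lists ESRP2, 219395_at, also lists the microRNA gene MIR6773, so its signal cannot be given to ESRP2 alone. It read 11.49 on the array labelled ORF, 11.24 on shRNA and 11.31 on control. It was bright on all 3 arrays, and its largest log2 ratio was 0.25 for ORF against shRNA (noise SD 0.134). Thus a signal was read for the ESRP2 locus and none above the floor for ESRP1.

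Of the 20 probe sets, 10 exceeded the floor on 1 or more arrays and 8 on all 3. In these 8, which include 3 for ELF3 and 2 for SPDEF, ORF was above shRNA in 8, against 52.5% of 22125 annotated probe sets that were above the floor on all arrays. The array labelled shRNA was the lowest in 7 of 8, against 36.7% of those probe sets. The ratio of ORF to shRNA exceeded its noise SD in 5 of the 8. The share of all probe sets past their noise SD was not computed, so nothing is read from that count. The probe sets of a gene read the same transcripts on the same arrays, so these counts are not independent of each other, and EHF was chosen for this order.

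**Figure D2:**
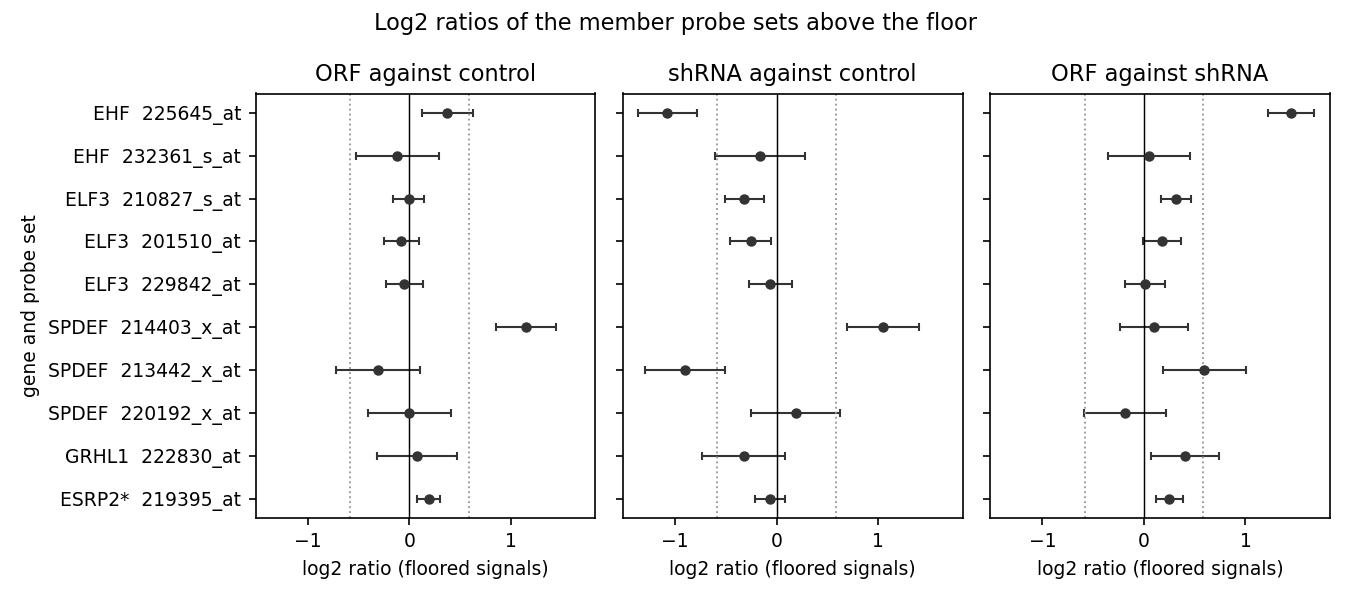
Log2 ratio of floored signals (points) with the probe-set noise SD (bars) for the 10 member probe sets above the floor on at least 1 array, in the 3 comparisons. Dotted lines mark 1.5-fold: EHF (225645_at) lies past them for shRNA against control and ORF against shRNA, and the 2 brightest SPDEF probe sets lie on opposite sides for shRNA against control.

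Counted by gene, with the brightest probe set that has 1 symbol, 4 of the 6 members with such a probe set exceeded the floor on 1 or more arrays: EHF, ELF3, SPDEF and GRHL1. For ORF against control, 1 of the 4 was at least 1.5-fold higher (SPDEF) and 0 lower, where 3.04% of 12664 genes above the floor were higher and 2.82% lower. For shRNA against control, 1 was higher (SPDEF, with the disagreement above) and 1 lower (EHF), where 3.59% and 3.3% of genes were. For ORF against shRNA, 1 was higher (EHF) and 0 lower, where 2.64% and 2.68% were. As EHF was chosen on these contrasts and the SPDEF probe sets disagree, nothing is read from these counts. Both comparisons with control share the control array, and the third is their difference.

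**Figure D3:**
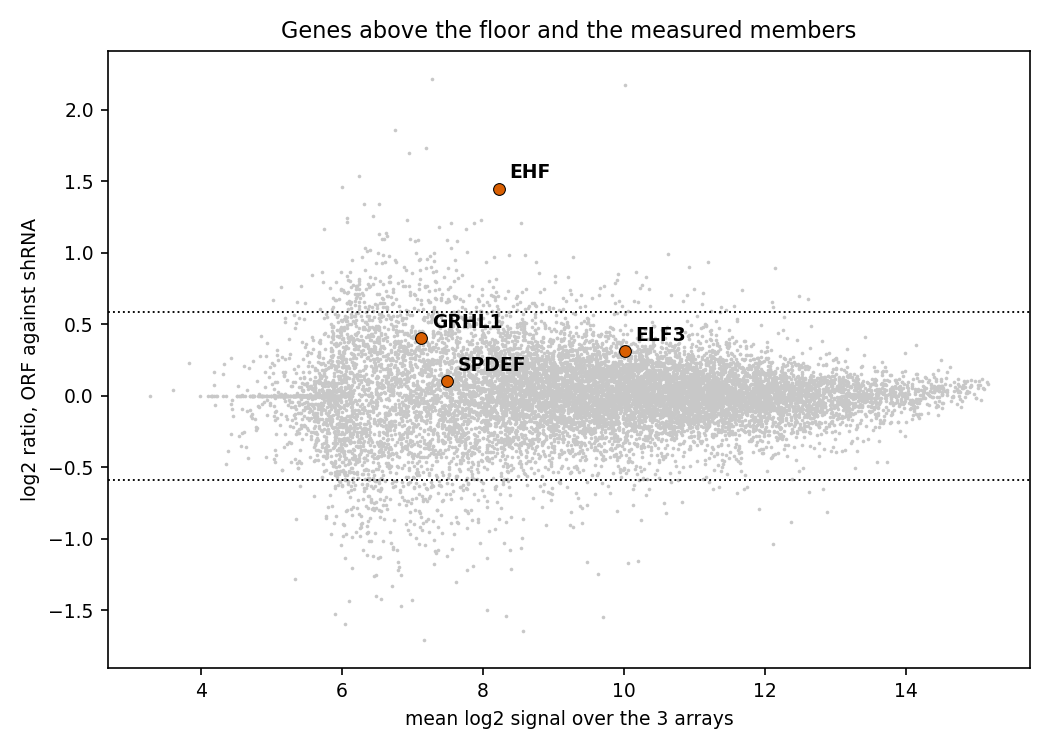
Log2 ratio of floored signals for ORF against shRNA (vertical axis) against the mean log2 signal over the 3 arrays (horizontal axis), 1 grey point per gene for the 12664 genes above the floor on at least 1 array, with the 4 measured members in orange. Dotted lines mark 1.5-fold: EHF stands at 1.45, and ELF3 (0.31), GRHL1 (0.40) and SPDEF (0.10) lie between the lines.

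The 6 bright genes whose pair of ratios to control lay nearest to that of EHF (0.37 and −1.08), by Euclidean distance over the 3 arrays, were SREBF1, CCDC82, ANKRD36B, MEGF6, CHTF18 and RUSC1-AS1. SREBF1, the regulator of lipid synthesis genes, came first at a distance of 0.361, with log2 signals of 9.68 on the array labelled ORF, 8.71 on shRNA and 9.45 on control in its brightest probe set. Its 2 probe sets disagreed, with log2 ratios of 0.22 and −0.50 for ORF against control, and were both below control on shRNA (−0.75 and −0.60). CCDC82, MEGF6 and RUSC1-AS1 also had probe sets of opposite sign for ORF against control, and CCDC82 and RUSC1-AS1 for shRNA against control, while ANKRD36B and CHTF18 had 1 probe set each. The others lay at distances of 0.463 to 0.502. In their brightest probe sets all 6 were lowest on the array labelled shRNA, as the choice requires, and none was as far below control as EHF: their log2 ratios for shRNA against control ran from −0.84 for RUSC1-AS1 to −0.61 for MEGF6.

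In a list of epithelial junction and membrane targets, 30 of 38 measured genes were above the floor. Control of these genes by the members was not tested. For ORF against shRNA, 3 were at least 1.5-fold higher and 2 lower, with a median log2 ratio of 0.03 beside 0.01 over all genes. Over all genes above the floor, 2.64% were higher and 2.68% lower for this comparison. The shares given earlier for each comparison are the background for every list below. CLDN7, a claudin of tight junctions, read 7.73 on the array labelled ORF, 6.86 on shRNA and 7.26 on control. CLDN4, a claudin of the same junctions, read 8.75, 8.11 and 8.60. Both had the order of EHF, with the array labelled shRNA lowest, and their log2 ratios for ORF against shRNA were 0.87 (noise SD 0.350) and 0.64 (noise SD 0.211). SPINT2 was also higher, at 0.61 (noise SD 0.296). The 2 lower genes were MAL2, at −0.60 (noise SD 0.201), and CDS1, at −0.61 (noise SD 0.411). Both of these had the reverse order, with the array labelled shRNA highest and ORF lowest. TJP3, a tight junction scaffold, and SPINT1, an inhibitor of membrane serine proteases, instead were highest on the control array, at log2 ratios of −0.74 and −0.65 for ORF against control and −0.88 and −0.45 for shRNA against control. In all, 1 gene of the list was higher and 2 lower for ORF against control, and 0 and 1 for shRNA against control. EPCAM, an epithelial adhesion molecule, was level at 10.47, 10.43 and 10.38, and CDH1 (E-cadherin) was above the floor on the control array alone, at 6.37. These 2 were singled out for their role after their values had been seen.

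The secretory and goblet genes tied to SPDEF were mostly dim, with 8 of 17 above the floor. For ORF against control 4 were at least 1.5-fold higher and 0 lower (median 0.50, beside 0 over all genes), for shRNA against control 3 and 0 (median 0.09), and for ORF against shRNA 3 and 1 (median 0.43). Over all genes above the floor, 3.04%, 3.59% and 2.64% were that much higher in these comparisons in turn. SPINK4, a goblet cell peptide, read 7.49 on the array labelled ORF, 6.95 on shRNA and 6.12 on control. MLPH, a carrier of secretory and pigment granules, read 8.89, 9.46 and 8.15. CREB3L1, a membrane-bound transcription factor of secretory cells, read 7.14, 6.14 and 6.25, and MUC5AC, a gel-forming mucin, read 8.01, 7.35 and 7.06. The control array was lowest for 3 of these 4 and the array labelled shRNA for CREB3L1. The 4 MUC5AC probe sets did not share a sign for ORF against control.

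Innate defence genes tied to EHF and ELF3 had the widest differences, a list whose leading genes were known from these arrays and which is therefore no independent evidence. Of 11 above the floor (of 18 measured), 8 were at least 1.5-fold higher for ORF against control (median 1.58), 5 for shRNA against control (median 0.58) and 6 for ORF against shRNA (median 0.75), and 0 were lower in any of the 3. The shares of all genes above the floor that were higher were 3.04%, 3.59% and 2.64% in turn. LCN2, an iron-carrier-binding protein, read 11.94 on the array labelled ORF, 9.76 on shRNA and 8.33 on control. PI3, an elastase inhibitor, read 11.87, 11.12 and 10.01. CXCL8 (interleukin 8) read 8.36, 6.50 and 5.41, and PTGS2 (cyclooxygenase 2) read 11.58, 10.59 and 9.69. The second CXCL8 probe set had a ratio of 0.35 for ORF against control and 0 for shRNA against control. In their brightest probe sets all 4 stood in the order ORF, shRNA, control, whereas EHF stood in the order ORF, control, shRNA. Against control, EHF and these 4 probe sets therefore lay on opposite sides on the array labelled shRNA. This did not hold for the whole list. TNFAIP2 and SERPINB3 had ratios of −0.06 (noise SD 0.164) and −0.01 (noise SD 0.441) for shRNA against control, while the rest above the floor were higher.

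Of the other 24 ETS factors 16 were above the floor, and few differed. ETV5, a target of ERK signalling, read 7.67 on the array labelled ORF, 7.73 on shRNA and 6.93 on control. It was the only one at least 1.5-fold higher than control on either array. Of the 3 ETV5 probe sets above the floor, 3 were higher for ORF against control, from 0.22 to 0.93. Only 1 was higher for shRNA against control, with the lowest at 0. ETV4, its close relative, was the only one that far below control, at −0.71 for shRNA (noise SD 0.398), and its 2 probe sets ran in opposite directions for ORF against control. ETV6 and ELK3, a pair of ETS repressors, had log2 ratios of 0.47 and 0.50 for ORF against control and 0.18 and 0.43 for shRNA. For shRNA against control the probe sets of both ran in different directions, from −0.25 to 0.23 for ETV6 and from −0.22 to 0.43 for ELK3. The medians of the list were 0.11 for each comparison with control and 0.04 for ORF against shRNA. ELF5, the relative that neighbours EHF on chromosome 11, was below the floor on all arrays, at most 5.26.

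Of 4 other CP2 and grainyhead genes, 3 were above the floor. TFCP2L1 was higher on the array labelled shRNA than on control (0.71, noise SD 0.434), TFCP2 had a ratio of 0.31 (noise SD 0.186; −0.04 in the lowest of its 3 probe sets) and UBP1 one of −0.09. At 1.5-fold the list had 1 gene higher for shRNA against control, and 0 in either direction for the other comparisons. GRHL3 was below the floor on all arrays, at most 3.77.

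Other splicing regulators of epithelial and mesenchymal exons were bright and close to level, with 19 of 21 above the floor and medians of −0.04, −0.02 and −0.02 in the 3 comparisons. KHDRBS3, a STAR-family RNA-binding protein, was the only one past 1.5-fold: it read 6.80 on the array labelled ORF, 7.52 on shRNA and 6.67 on control. RBM24 (−0.57 for ORF against shRNA, noise SD 0.152), MBNL3 (−0.32 for ORF against control, noise SD 0.107) and RBFOX2 (−0.35 for shRNA against control, noise SD 0.151) followed within 1.5-fold. The 3 MBNL3 probe sets ran from −0.40 to 0.53 for ORF against control. Among 19 measured genes whose transcripts ESRP proteins splice, all 19 were above the floor. MAP4K4, a kinase of cell migration, was the only one past 1.5-fold, at 10.01 on the array labelled ORF, 10.17 on shRNA and 9.17 on control, and 1 of its 5 probe sets ran the other way for ORF against control. FGFR3, ITGA6 and EXOC7 came next, with ratios of −0.58 for ORF against control, 0.46 for shRNA against control and −0.45 for shRNA against control. The 3 EXOC7 probe sets ran from −0.45 to 0.40 for that last comparison. The medians of this list were 0.03, −0.005 and 0.08. These are 3′ expression probe sets, so they give transcript levels and not exon use.

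Repressors of epithelial genes were present, with 9 of 12 above the floor. For shRNA against control 2 were at least 1.5-fold higher and 1 lower, for ORF against control 1 and 0, and for ORF against shRNA 0 and 1, with medians of 0.16, 0.03 and 0.03. ZEB2, a zinc finger repressor of CDH1, read 6.40 on the array labelled ORF, 7.27 on shRNA and 6.53 on control, the reverse of the order of EHF, with ORF and control closer than the noise SD of 0.411. This rests on 1 probe set, since the other above the floor had a ratio of 0.001 for shRNA against control and −0.12 for ORF against shRNA. TWIST2, a bHLH repressor, read 9.85, 10.26 and 9.57. TCF3, whose E proteins bind E-boxes, had a ratio of −0.64 for shRNA against control, but its 11 probe sets above the floor differed in sign. TCF4, the related E protein, had a ratio of 0.70 for ORF against control, the largest of its 5 probe sets above the floor. These ran from 0.02 upwards for that comparison, and from −0.17 to 0.58 for shRNA against control.

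Other epithelial fate factors were above the floor for 10 of 17 measured genes. For ORF against control 1 was at least 1.5-fold higher and 2 lower, for shRNA against control 0 and 2, and for ORF against shRNA 1 and 0, with medians of −0.07, 0.03 and −0.004. TFAP2C, an AP-2 factor of ectodermal epithelia, read 8.72 on the array labelled ORF, 8.86 on shRNA and 9.45 on control, and CEBPA, a differentiation factor of liver and other tissues, read 9.41, 9.32 and 9.96. Both were highest on the control array. FOXA1, a pioneer factor of endodermal epithelia, read 7.36, 7.77 and 8.02, and PRDM1, a repressor in differentiating epithelia, read 9.37, 8.76 and 8.67, but in both genes the probe sets ran in different directions for ORF against control.

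**Figure D4:**
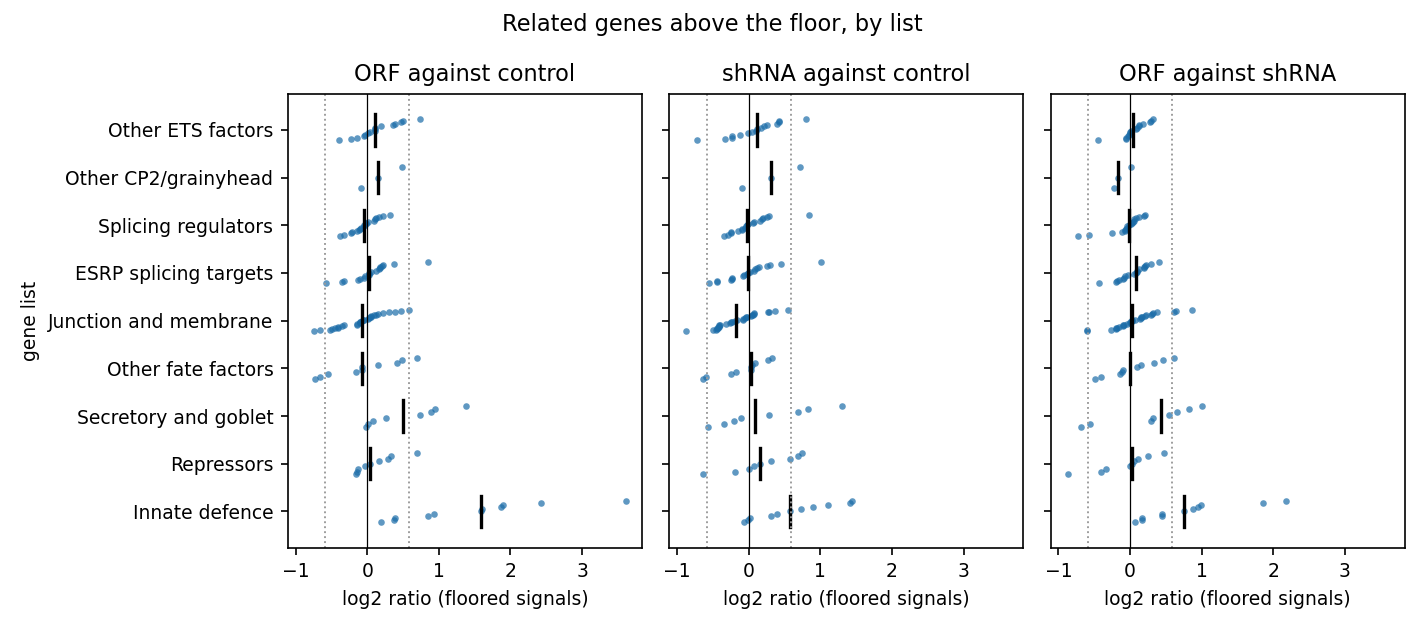
Log2 ratio of floored signals (horizontal axis) for genes of 9 related lists above the floor on at least 1 array (blue points, 1 per gene), with the list's median as a black bar, in the 3 comparisons; dotted lines mark 1.5-fold. The innate defence list lies furthest right, with medians of 1.58, 0.58 and 0.75, and the medians of the other lists apart from the secretory and goblet genes lie within 0.31 of 0.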

How the data were processed

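RNA of 3 cultures was biotin-labelled from its 3′ end and hybridised to 1 array each. The authors' deposited values are log2 signals of 54675 probe sets. Their software was MAS5 per the submitters' processing notes, with no version given in the sources used here. In GEO's platform annotation 41097 probe sets had 1 gene symbol, 1801 several and 11777 none. By gene identifier 41043 matched RefSeq's table (GRCh38.p14), and 0 symbols changed.

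Arrays were scaled to one 2% trimmed mean of linear signal (500.1), signals under the pooled median (5.93) were raised to it, and each of 19775 genes took its brightest probe set with 1 symbol. Ratios near this floor understate differences. The noise SD came from 5483 pairs of probe sets of 1 gene less than 1 apart in mean log2 signal, as the scaled median absolute difference of their ratios over the square root of 2, in 20 signal bins. Below the dimmest bin its value was carried down. These ratios were taken from floored signals, so near the floor the noise SD can be too small. Python 3.11.15, pandas 2.3.3, numpy 2.4.6 and statsmodels 0.14.6 (loess) were used, and the procedure was tested on simulated data.

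The members, the 9 related lists and the marker lists were chosen with earlier results of these data known. All member probe sets are named, and up to 4 genes per list with the largest ratio in any comparison. Some other genes of the lists were named after their values had been seen. Genes without a probe set of 1 symbol were left out of the analysis by gene, and ESRP2 was reported by its probe set only. Of the 7 members, 4 had windows in RefSeq's promoter table. Above the floor on any array were 2 of 5 leukocyte, 2 of 4 endothelial and 0 of 2 stratified epithelial markers, and 0 of these reached the 75th percentile. Their part in the results was not tested.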

Additional observations from a re-analysis of the deposited data

How the results depend on the processing

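The alternatives were quantile normalization, loess centring, equal medians above the floor, the deposited values, signals without a floor or with one at the 75th percentile, the median over a gene's probe sets, leaving out _x_at and _s_at probe sets, and a 2-fold threshold. The 3 EHF log2 ratios moved by less than their noise SD in 19 of 24 cases. Some of these cases could not move them and are no check. The deposited values were already on one scale. The brightest EHF probe set was above the floor on all arrays and carries neither suffix. With the median over probe sets, all 3 became 0, since most EHF probe sets lie under the floor. With the floor at the 75th percentile, shRNA against control became 0 and ORF against shRNA 0.20, because that floor lies above both lower signals. The count of members past 1.5-fold (1 for ORF and 2 for shRNA against control, and 1 for ORF against shRNA) became 0 in all 3 comparisons with either of these settings. Without _x_at and _s_at probe sets it became 0, 1 and 1, since SPDEF then has no probe set. The SPDEF ratios became 0 and 0.19 against control with the median over probe sets, and its small ratio of ORF to shRNA turned from 0.10 to −0.19. For all genes, the counts past 1.5-fold of 742, 873 and 674 became 1301, 1420 and 1250 without a floor, 125, 194 and 119 with the higher floor, and 146, 146 and 95 at 2-fold. No scaling moved the median of all genes by over 0.03. No paired analysis was possible because each group has 1 array. Precision is limited by the number of arrays, and 10 of the 20 member probe sets were under the floor on all 3.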

Other observations

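The genes around EHF on chromosome 11 were read as a description, chosen after the EHF values had been seen. Of the 10 nearest protein-coding genes, 5 on each side in RefSeq's GRCh38.p14 annotation, 7 exceeded the floor: CAPRIN1, NAT10, ABTB2, CAT, APIP, PDHX and CD44. None of the 7 was 1.5-fold apart in any of the 3 comparisons. APIP, the next gene after EHF and a methionine salvage enzyme, read 11.95 on the array labelled ORF, 11.86 on shRNA and 11.97 on control. CD44, a hyaluronan receptor whose transcripts ESRP proteins splice, had the largest ratio to control of the 7, at 0.25 for shRNA (noise SD 0.099), the opposite side from EHF in its brightest probe set. Of its 10 probe sets above the floor, 8 were higher and 2 lower for shRNA against control, from −0.12 to 0.32. CAT, which encodes catalase, had ratios of −0.06 for ORF and −0.12 for shRNA. ELF5, SLC1A2 and PAMR1 were below the floor on all arrays.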
